A study of Camellia sinensis with 24 samples.

Results

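The comparison set out here is that of the root transcriptomes of 2 tea (Camellia sinensis) genotypes, “1511” and “1601”, after both sides of a split-root box had been without K. It rests on 6 of 24 RNA-seq libraries, 3 of “1511” U.SK and 3 of “1601” U.SK, chosen by their labels alone. Both genotypes came from 1 F1 population, the cross of Longjing 43 and Baihaozao; the study selected “1511” as tolerant of low K and “1601” as intolerant. Cuttings 1 year old were grown in solution culture with their roots parted between the sides of a box, precultured with K for 60 days and treated for 5 days, 12 plants to a box. In U.SK both sides received 0 mM K2SO4; in U.NK both received 1 mM; Sp.NK and Sp.SK were the supplied (1 mM) and the unsupplied (0 mM) side of the same boxes. Every condition was sampled in both genotypes with 3 libraries, and the other 18 libraries serve below only to show where the difference on U.SK departs from that elsewhere. Each genotype is 1 clone of the cross, so tolerance of low K cannot be told apart here from any other difference between the 2 clones.

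Potassium is the main inorganic cation of plant cells. Roots take it up through inward-rectifying channels of the Shaker type at ample supply and through proton-coupled K+ transporters of the KUP/HAK/KT family at low supply, and both are known from Arabidopsis to be switched by calcium sensor-activated CIPK kinases and reversed by PP2C phosphatases. Roots short of K are also known to change reactive oxygen metabolism, wall loosening, nitrogen uptake and the partition of sugar, while in tea roots the phenylpropanoid route feeds lignin and flavan-3-ols.

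The U.SK libraries held 15006288, 15645916 and 16731022 counts in “1511” and 14974618, 22020152 and 20091322 in “1601”, against 13214833 to 26309637 over all 24. The table listed 48505 genes, of which 14573 were newly assembled, and 35557 passed the filter on low counts and were tested. Newly assembled genes are named by their scaffold and position. Levels below are CPM, counts scaled to one library size after TMM, given for replicates 1, 2 and 3 in turn; calls are those of edgeR's quasi-likelihood test at a Benjamini-Hochberg adjusted p under 0.05; log2 differences are “1511” less “1601” and carry their standard error. The 10 most abundant genes took 4.50% to 4.68% of the counts in “1511” U.SK and 2.86% to 3.01% in “1601” U.SK. One library stood apart: log2 CPM of “1511” U.SK replicate 3 correlated with replicates 1 and 2 at r = 0.966 and 0.968, which correlated with each other at 0.991, and the “1601” U.SK pairs reached 0.987 to 0.993. In “1511” U.NK, replicate 2 lay nearer to the “1511” U.SK libraries on the first 2 principal components (-120.4 and -57.3, against -143.2 and -77.2 for U.SK replicate 1) than to its own group (-81.0 and 15.6, and -48.9 and 56.3). Counts without these libraries are given with many of the results they move. The overlaps of calls between conditions and the medians on U.NK keep all libraries. The DUF588 family holds the Casparian strip membrane proteins of the endodermis. With the dirigent proteins it summed to 2861 to 3160 CPM in “1511” U.SK and 1972 to 2160 CPM in “1601” U.SK. All libraries were of roots, without another organ for reference, so these sums do not test the root label. After TMM scaling all genes together summed to 1086490 to 1226500 CPM and 963278 to 984615 CPM, against which any sum over a list is to be read. Most of the “1511” sum came from TEA031033, a gene model that joins a DUF588 domain to a CHY zinc finger (2520, 2677 and 2292 CPM). Genes with words of green tissue (chlorophyll-binding proteins, Rubisco, photosystems) summed to 1776, 1424 and 1532 CPM against 1858, 1928 and 3199 CPM.

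About as many genes differed between the genotypes without K as did not pass the test. Of 35557 genes, 19292 were called (54.3%), 8823 of them higher in “1511” (24.8% of those tested) and 10469 lower (29.4%). Among these, 5580 were at least 2-fold higher and 7979 at least 2-fold lower, and 1345 and 2064 differed by at least 16-fold. The median absolute log2 difference of called genes was 1.55, while the median of all genes tested was -0.08. Leaving out 1 U.SK library gave 16441 to 19190 calls, of 36362 to 36454 genes tested. Since so many genes were called, a gene group is read below against 24.8% higher and 29.4% lower. In such bulk roots fewer cells of a kind and less RNA per cell cannot be told apart.

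**Figure D1:**
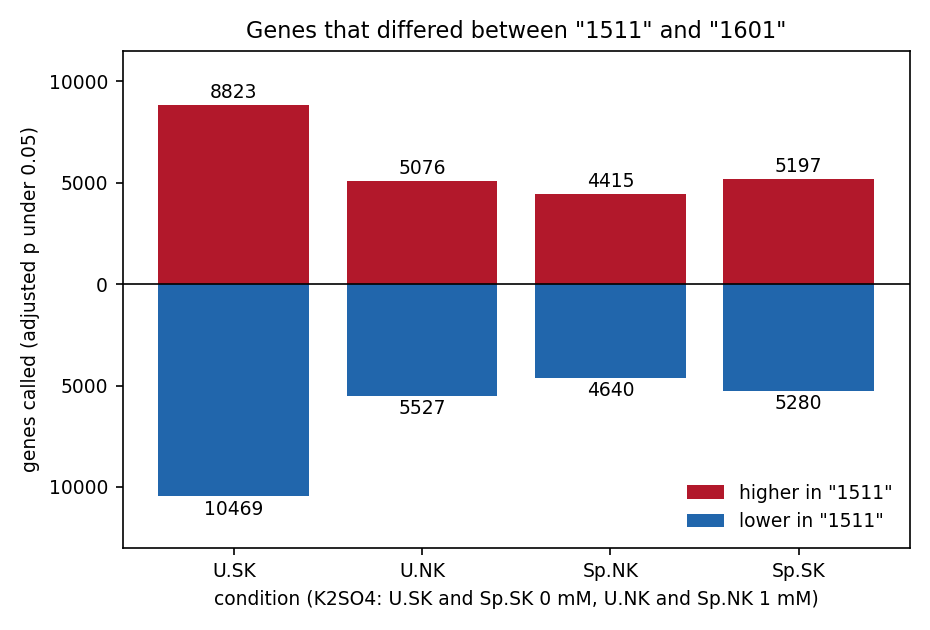
Number of genes (vertical axis) called higher (above 0) or lower (below 0) in “1511” than in “1601” in each of the 4 conditions, 3 libraries per genotype and condition. U.SK gave 8823 and 10469 calls, the other conditions between 4415 and 5527 in each direction.

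With K on both sides (U.NK) the genotypes differed in 10603 genes (29.8%), on Sp.NK in 9055 (25.5%) and on Sp.SK in 10477 (29.5%), as the plot of calls by condition shows. The U.NK calls were 8289 without “1511” U.NK replicate 2, and 7987 to 12259 with any 1 U.NK library left out. Genes at least 2-fold higher and lower made up 9.81% and 11.7% on U.NK, 9.53% and 9.68% on Sp.NK, and 11.1% and 10.1% on Sp.SK, against 15.7% and 22.4% on U.SK. The median absolute difference over all genes was 0.83 on U.SK and 0.51, 0.45 and 0.51 on U.NK, Sp.NK and Sp.SK. These comparisons share no libraries, but Sp.NK and Sp.SK were sides of the same boxes. The fit did not pair those sides, also where the conditions are averaged below. Of the U.SK calls, 9290 were called in the same direction on U.NK, which is 48.2% of the U.SK calls and 87.6% of the U.NK calls, and 16 were called in the opposite one. The same-direction counts were 6426 with Sp.NK (363 opposite) and 7523 with Sp.SK (334 opposite). The log2 differences across the genes tested correlated with those on U.NK, Sp.NK and Sp.SK at r = 0.88, 0.78 and 0.79 (35557 genes, which are not independent). In all 4 conditions 2486 genes were called higher in “1511” and 2517 lower, together 25.9% of the U.SK calls; these 5003 genes became 2334 without newly assembled genes and 1580 with at least 10 counts in every library. A further 7678 genes were called on U.SK and in no other condition. In 3151 of these the difference on U.SK departed from the mean of the other conditions by the direct test described below.

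A group of genes was counted in one genotype and hardly at all in the other. At or under 3 counts in each “1601” U.SK library but at a mean of 1 CPM or more in “1511” were 822 genes, and the reverse held for 1199. Of the 822, 623 (75.8%) were at or under 3 counts in all 12 “1601” libraries, and 534 of these exceeded 3 counts in all 12 of “1511”. Of the 1199, 595 (49.6%) stayed at or under 3 counts in all 12 “1511” libraries, whereas 604 exceeded 3 counts in some other “1511” library. Newly assembled genes made up 74.7% of the 822 and 47.3% of the 1199, against 27.8% of all genes tested. Mobile-element words stood in 11.9% and 5.41% of those with a Pfam description, against 1.94% of all. Such genes also lay beside each other: 12.9% of the 822 and 11.0% of the 1199 had an adjacent gene of the same set, where 2.80% and 4.29% of all genes tested did. One run on scaffold 2428 (344236 to 417991) held 2 genes with a beta-L-arabinofuranosidase domain and a reverse transcriptase, all newly assembled and counted in “1511”. A run on scaffold 6250 (512335 to 611009) held a pair of NB-ARC immune receptor genes, TEA000351 and TEA000348.

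The 6 described genes with the highest CPM in “1511” were as follows. A newly assembled UDP-glycosyltransferase on scaffold 8812 (1340689 to 1343787), one of the enzymes that attach sugars to small molecules, had 2212, 1941 and 2356 counts in “1511” U.SK and 0 in each “1601” U.SK library, at least 1022-fold higher with 3 counts per library as the floor. A leucine-rich repeat receptor kinase, TEA029212, had 2841, 1577 and 1979 counts against 0, at least 1019-fold higher. Cytochromes P450, haem oxygenases of specialised and hormone metabolism, gave 2 such genes: TEA011079 (scaffold 2966, 288907 to 289854, minus strand, 1 exon) had 1104, 1271 and 4341 counts against 0 and TEA021723 (scaffold 1551, 14278 to 19746, plus strand) had 1293, 1376 and 2751 against 0, at least 993-fold and 825-fold higher. All 4 were counted in every “1511” library of the other conditions too. A gene with the leucine zipper of ternary complex factor MIP1, TEA033161, was even across “1511” (1035, 1017 and 1076 counts on U.SK, means of 71.7 to 102 CPM elsewhere) and at 0 in all 12 “1601” libraries. A small heat shock protein gene on scaffold 1710 (157051 to 191987) differed in kind: it had 2156 and 1930 counts in replicates 1 and 2 of “1511” U.SK and 2 in replicate 3, against 1, 0 and 0 in “1601”.

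In the other direction, the NB-ARC and leucine-rich repeat gene TEA015693 had 1616, 2823 and 2508 counts in “1601” U.SK and 0 in all 12 “1511” libraries, at least 522-fold lower in “1511” on U.SK. A pair of ribosome-inactivating lectin genes on scaffold 5444, TEA005161 (191325 to 193037) and TEA005164 (313149 to 314861), whose products are known as toxins acting on ribosomes, had 1378, 2620 and 2615 counts and 643, 1278 and 1406 counts in “1601”. In “1511” U.SK the former had 0, 1 and 0 counts and the latter 0, at least 247-fold lower. The remaining 3 were counted in “1511” under other conditions. TEA021081, a SABATH methyltransferase (the family that methylates carboxyl groups and, in tea, makes caffeine), had 0 counts in “1511” U.SK, 1462, 2709 and 3286 in “1601” U.SK, and means of 0.277 to 2.32 CPM in “1511” elsewhere. The major facilitator transporter TEA002651 had 0 counts against 223, 1355 and 2167, yet averaged 29.3, 17.6 and 24.7 CPM in “1511” U.NK, Sp.NK and Sp.SK. TEA017457, with xylanase inhibitor domains, had 0 counts against 217, 823 and 1939, and averaged 2.75 to 11.8 CPM in the other “1511” groups. The 604 genes with counts elsewhere in “1511” were newly assembled in 28.1% and described in 68.7%, near the 27.8% and 68.9% of all genes tested. They held 16 P450, 15 UDP-glycosyltransferase, 18 acyltransferase and 13 MYB genes. The 35557 genes tested held 324, 241, 372 and 229 of these, so each of these families made up a larger share of the 604 than of all genes tested. Also counted were 7 expansins and xyloglucan transglycosylases, 5 nitrogen transporters, 5 SABATH, 4 pectin, 8 NB-ARC and 11 mobile-element genes. Of these lists 79, 87, 24, 128, 406 and 475 were tested. Genes of dividing cells gave 2, haem peroxidases 1 and multicopper oxidases 1. These were smaller shares than among all genes tested, which held 182, 105 and 73.

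**Figure D2:**
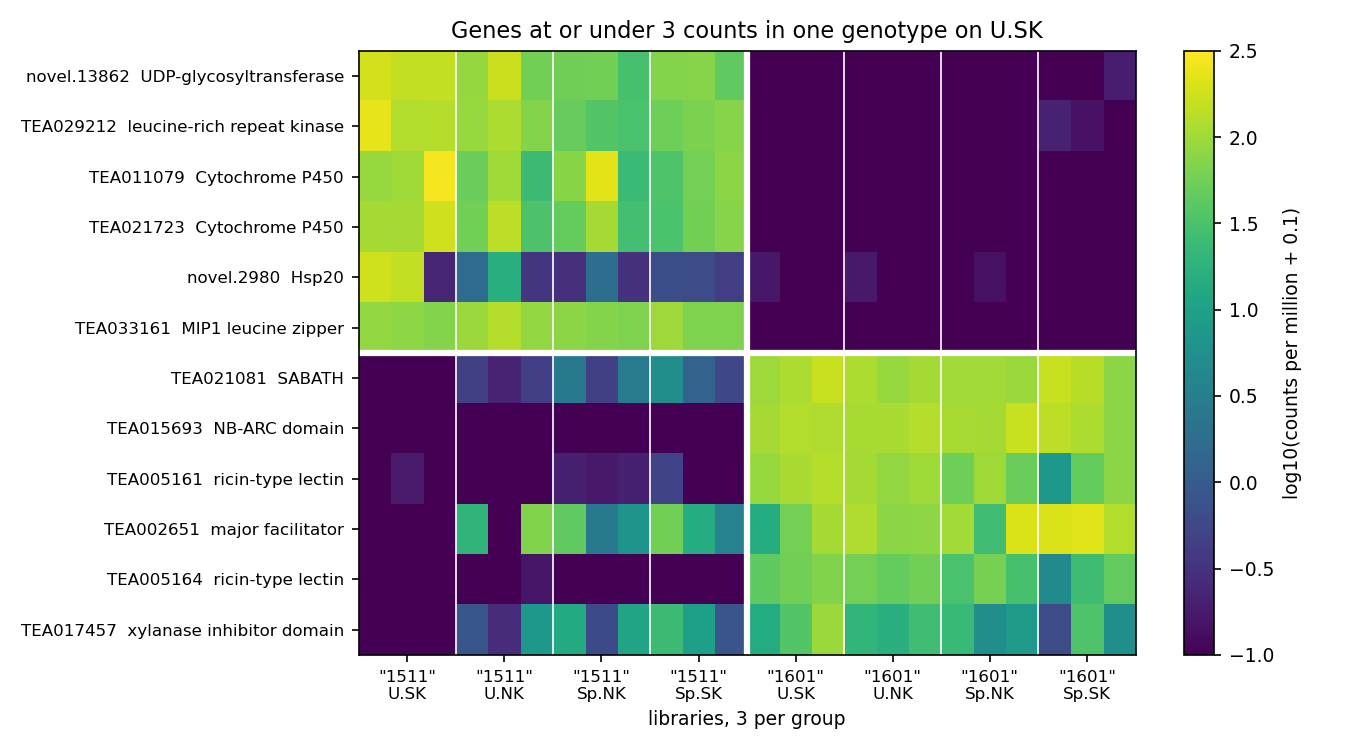
Heat map of 12 genes (rows) in all 24 libraries (columns, 3 per group), coloured by log10 of CPM plus 0.1. The upper 6 genes were at or under 3 counts in “1601” U.SK, the lower 6 in “1511” U.SK; TEA021081, TEA002651 and TEA017457 were counted in other “1511” groups.

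Among genes counted in all 6 U.SK libraries, the largest excess in “1511” belonged to a newly assembled cyclin-domain gene on scaffold 2442 (534088 to 537630). Cyclins drive the cell cycle. It stood at 42.3, 30.8 and 30.7 CPM against 0.395, 0.175 and 0.195 CPM (log2 7.11 ± 0.56, adjusted p = 7.77e-09). A ubiquitin-conjugating enzyme gene on scaffold 1621 (690419 to 693871) stood at 70.5, 56.0 and 53.8 CPM against 0.855, 0.787 and 0.633 (log2 6.30 ± 0.46). The EamA-type membrane transporter TEA023071 stood at 119, 128 and 62.6 CPM against 3.22, 1.62 and 1.02 (log2 5.75 ± 0.45). In each of these, chosen for no overlap, the lowest “1511” library lay well above the highest of “1601”. Each was also higher by mean CPM in the other 3 conditions. A retrotransposon gag gene on scaffold 4574 (1037 to 3682) rested on replicates 1 and 2 (24.6 and 11.3 CPM, with 0.649 in replicate 3, against 0.195 to 0.329), and its log2 difference went from 5.61 to 4.59 without replicate 1. An NB-ARC gene on scaffold 4311 (1053344 to 1086663) showed the tightest replicates of these, 140, 138 and 143 CPM against 2.63, 3.63 and 1.90 (log2 5.68 ± 0.25, adjusted p = 6.3e-12).

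The 8 largest deficits in “1511” under the same conditions held the following genes. A metallothionein gene on scaffold 8072 (1900 to 3074), whose class of small cysteine-rich proteins binds metals, stood at 1.14, 4.05 and 0.260 CPM against 110, 337 and 457 CPM (log2 -7.40 ± 0.92, and -8.81 without “1511” replicate 2). The xyloglucan endotransglycosylase TEA021989, of the family that cuts and rejoins wall xyloglucan, stood at 1.06, 1.56 and 1.69 CPM against 155, 136 and 141 (log2 -6.63 ± 0.42, adjusted p = 5.33e-10). Among the 8 genes furthest down were 3 of the 2-oxoglutarate iron dioxygenases, a family that includes flavonoid and gibberellin enzymes. TEA016482 stood at 0.572, 1.25 and 0.390 CPM against 53.3, 101 and 107 (log2 -6.90 ± 0.77). TEA010732 followed at log2 -6.04 ± 0.74, and TEA004070 rested in part on 1 library, at 8.22, 8.01 and 154 CPM in “1601”, so that its difference went from -6.43 to -3.62 without “1601” replicate 3. The P450 TEA011307 stood at 0.545 to 0.584 CPM against 39.8, 63.3 and 56.6 (log2 -6.53 ± 0.96). The deficit was not alike elsewhere: TEA011307 averaged 5.42, 16.9 and 10.7 CPM in “1511” U.NK, Sp.NK and Sp.SK, while the metallothionein gene averaged 1.76 CPM in “1511” U.NK against 325 CPM in “1601”.

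**Figure D3:**
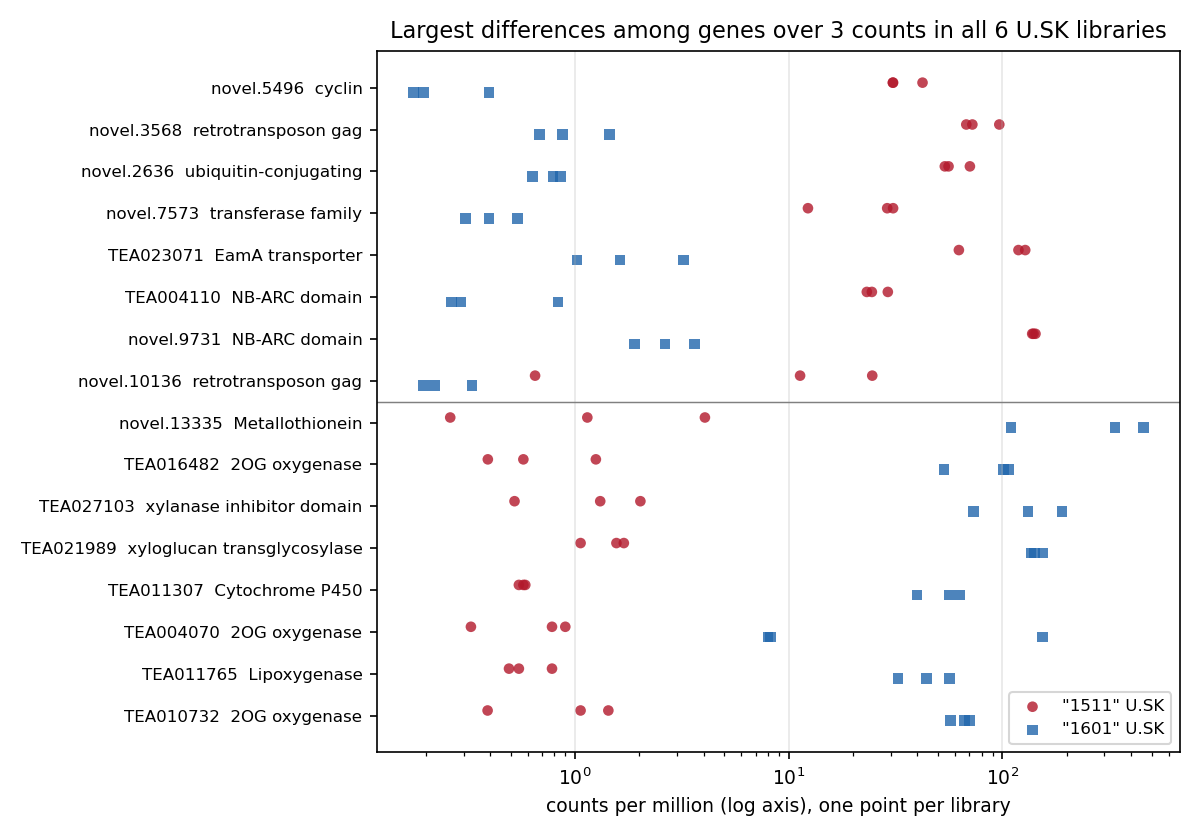
CPM (log axis) of 16 genes in each U.SK library, circles for “1511” and squares for “1601”, 8 genes per direction. Only genes without overlap between the genotypes were chosen. The gag gene on scaffold 4574 and TEA004070 each had 1 library apart from the other 2 of its group.

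Read by Pfam family, 315 families had 20 or more genes tested. The families with the highest share called higher in “1511” were retrotransposon gag proteins (23 of 31, 74.2%), HSF-type DNA-binding domains (11 of 20, 55.0%), reverse transcriptases (64 of 119, 53.8%), gag polypeptides of copia type (28 of 54) and plant mobile domains (23 of 45). Hsp20 proteins followed with 21 of 42. The families with the highest share called lower were chlorophyll-binding proteins (18 of 23, 78.3%), dirigent proteins (20 of 26, 76.9%), tubulins (19 of 25, 76.0%), cyclin C-terminal domains (18 of 25, 72.0%) and the pollen allergen domain of expansins (24 of 35, 68.6%). Kinesins (57 of 87) and sulfotransferases (17 of 27) were also near that end. At the median, chlorophyll-binding genes differed as much with K as without (-2.53 on U.NK and -2.27 on U.SK), whereas dirigent genes went from -0.54 to -2.49.

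**Figure D4:**
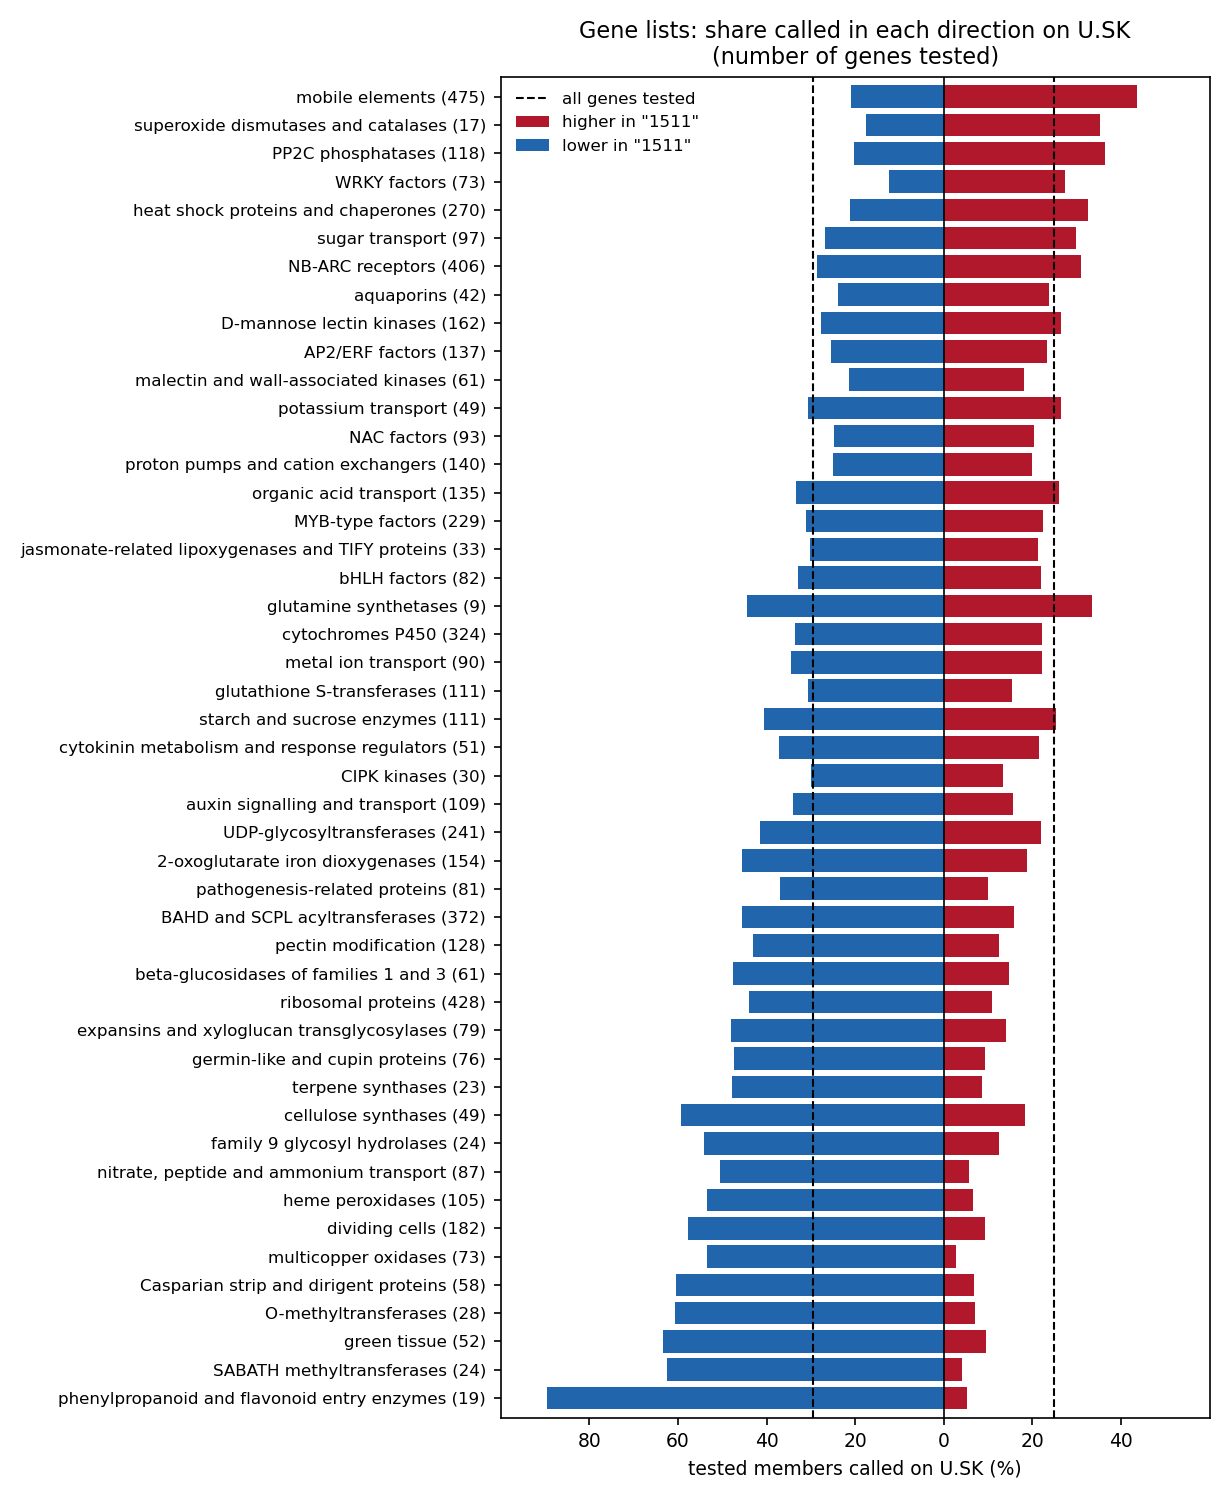
Percent of the tested members of 47 gene lists (rows, number tested in brackets) called lower (left) or higher (right) in “1511” on U.SK. The dashed lines mark 29.4% and 24.8%, the shares of all genes tested; phenylpropanoid and flavonoid entry enzymes reach 89.5% lower and mobile elements 43.6% higher.

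Genes of K+ transport differed in both directions and at about the rate of all genes. Of 49 tested, 13 were higher in “1511” and 15 lower, with a median of -0.02. Their summed level was higher in “1511” without overlap, at 2247, 1976 and 2135 CPM against 1333, 1357 and 1238 CPM. The channel gene TEA010797, with the KHA dimerisation domain of plant Shaker channels, stood at 39.1, 43.5 and 33.8 CPM against 13.0, 10.9 and 12.5 (log2 1.67 ± 0.31, adjusted p = 0.000198). A further ankyrin-repeat channel, TEA018512, stood at 30.7, 23.2 and 9.42 CPM against 6.96 to 8.57 (log2 1.46 ± 0.39). Absence of overlap between the genotypes was a condition for naming these genes. Of all genes tested, 22.7% were called higher in “1511” without overlap and 28.5% lower. The KUP/HAK/KT transporter TEA011420 was lower, at 0.490, 0.857 and 0.584 CPM against 4.73, 5.64 and 4.14 (log2 -2.90 ± 0.44) and averaged 1.19 CPM against 4.80 on U.NK. Of the same family, TEA021660 stood at 2.04, 2.41 and 10.6 CPM against 19.6, 14.4 and 15.9; its difference of -1.70 became -2.90 without “1511” replicate 3.

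The kinase and phosphatase families that include regulators of such channels differed in both directions. Of 30 CIPK genes tested, 4 were higher and 9 lower; TEA014908 stood at 165, 104 and 69.2 CPM against 32 to 49.8 (log2 1.50 ± 0.26) and TEA005865 at 14.3, 15.4 and 8.12 against 58.8, 83.0 and 76.2 (log2 -2.53 ± 0.44). Of 118 PP2C phosphatases, which also serve abscisic acid signalling, 43 were higher and 24 lower. The PP2C gene TEA023902 stood at 24.7, 25.9 and 16.1 CPM against 0.658, 0.875 and 1.17 (log2 4.60 ± 0.37). With a U.SK library left out, 1 to 6 CIPK genes were higher (1 without “1511” replicate 1 or “1601” replicate 1, 2 without “1511” replicate 2 or “1601” replicate 3) and 8 to 10 lower, and 33 to 42 PP2C genes were higher and 20 to 23 lower. Proton pumps, which set the gradient for K+ entry, were listed together with cation exchangers, and 28 of 140 were higher and 35 lower. The words of this list do not tell which ion a member moves. The P-type ATPase TEA026355 was higher in “1511” (30.2, 26.4 and 34.2 CPM against 0.584 to 1.66, log2 4.55 ± 0.52). TEA011305 was lower (12.7, 21.9 and 13.0 against 202, 280 and 269, log2 -3.98 ± 0.61), and this P-type ATPase did not pass the test on U.NK (-0.61, adjusted p = 0.424).

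Nitrogen transport genes were mostly lower where they differed. In the POT family (nitrate and peptide transporters) with the ammonium transporters, 44 of 87 genes were lower in “1511” and 5 higher, with a median of -1.01 on U.SK and -0.50, -0.09 and -0.11 on U.NK, Sp.NK and Sp.SK. TEA025552 stood at 2.21, 1.95 and 1.49 CPM against 19.2, 23.0 and 15.3 (log2 -3.35 ± 0.38). The POT gene TEA029267, named by the same rule, was weaker (log2 -2.83 ± 1.14, adjusted p = 0.0414) and its adjusted p lay between 0.0769 and 0.125 without “1511” replicate 1 or 3 or “1601” replicate 2 or 3. Of the glutamine synthetases, which fix ammonium and in tea lie upstream of theanine, 4 of 9 were lower and 3 higher. TEA032217 stood at 293, 406 and 286 CPM against 942, 1555 and 1926 (log2 -2.17 ± 0.41), and averaged 1368 CPM in “1511” U.NK. Its difference on U.SK departed from the mean of the other conditions by -1.48.

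Metal transport had 31 of 90 genes lower and 20 higher, near the background. The NRAMP metal transporter TEA017264 stood at 13.4, 14.6 and 21.5 CPM against 530, 753 and 572 (log2 -5.22 ± 0.75), with “1511” at 193, 155 and 244 CPM in the other conditions. Aquaporins, the water channels, were evenly divided (10 higher and 10 lower of 42). TEA008680 stood at 17.6, 13.9 and 10.4 CPM against 1.38 to 1.79 (log2 3.07 ± 0.33), while TEA024296 stood at 23.9, 33.2 and 8.44 against 169, 250 and 273 (log2 -3.40 ± 0.57). Sugar transporters (29 higher and 26 lower of 97) and organic acid transporters of the MATE and malate channel families (35 and 45 of 135) likewise moved near the background. The MATE gene TEA017709, joined to an RNA-recognition motif in its model, was at 14.5 to 21.8 CPM against 0.292 to 0.855 (log2 5.13 ± 0.45) and was higher by about the same in the other conditions (4.82 to 5.14). Enzymes of starch and sucrose, which store and move carbon, had 28 of 111 higher and 45 lower, with a median of -0.40, while their summed level was higher in “1511” (10152, 9740 and 7442 CPM against 6016 to 6372). The starch synthase TEA018905 stood at 1.06, 2.18 and 2.53 CPM against 40.5, 84.7 and 102 (log2 -5.28 ± 0.66).

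Cell wall genes were called lower in “1511” more often than higher, in shares above that of all genes. Expansins and xyloglucan transglycosylases, which loosen the wall in growing cells, had 38 of 79 lower and 11 higher (median -1.11). Family 9 glycosyl hydrolases, the plant endoglucanases, had 13 of 24 lower and 3 higher (median -1.90, or -1.70 with genes at 0 counts set to their bound). Pectin-modifying enzymes had 55 of 128 lower and 16 higher, cellulose synthases 29 of 49 lower and 9 higher, and beta-glucosidases of families 1 and 3 had 29 of 61 lower and 9 higher. The beta-glucosidase list summed to 14076, 13798 and 15843 CPM in “1511” against 7393, 6315 and 4827 CPM in “1601”, so its summed level went the other way, without overlap. Its count of higher genes was 5 without “1511” replicate 3 or “1601” replicate 2, and 3 without “1601” replicate 3, and that of pectin genes 10 without “1601” replicate 2. The shares lower, 43.0% to 59.2%, were all above 29.4%, and without “1511” replicate 3 the 5 counts of lower genes were 35, 14, 46, 31 and 28. Examples show the size of these differences. The expansin TEA022767 stood at 3.43, 4.59 and 9.09 CPM against 125, 95.5 and 157 (log2 -4.45 ± 0.63). The pectate lyase TEA003345, a pectin-cutting enzyme, stood at 0.572, 0.701 and 1.36 CPM against 37.5, 27.4 and 48.6 (log2 -5.38 ± 0.74). The endoglucanase TEA002154 stood at 2.04, 2.34 and 3.05 CPM against 48.0, 36.3 and 48.4 (log2 -4.15 ± 0.60), and was higher in “1511” on Sp.SK (1.60, adjusted p = 0.0231). Against the trend of their list, the cellulose synthase genes TEA022251 (18.0, 27.3 and 32.3 CPM against 1.32 to 2.37, log2 3.87 ± 0.57) and TEA002379 (14.6, 15.3 and 40.1 CPM against 1.17 to 3.02, log2 3.65 ± 0.72, and 3.00 without “1511” replicate 3) were higher.

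The barrier and lignin side of the wall followed. DUF588 and dirigent proteins, of the Casparian strip and of lignan coupling, had 35 of 58 lower and 4 higher, although their summed CPM was higher in “1511” through TEA031033 (log2 1.27 ± 0.40). TEA018738, a DUF588 gene, stood at 0.654, 1.40 and 2.08 CPM against 32.7, 50.0 and 56.8 (log2 -5.04 ± 0.57) and was lower in all 4 conditions. Of multicopper oxidases, the laccase family that polymerises lignin, 39 of 73 were lower and 2 higher (median -1.51, or -1.25 with bounds). TEA016093 stood at 1.06, 0.934 and 0.714 CPM against 17.3, 22.3 and 36.7 (log2 -4.82 ± 0.64), while on U.NK, Sp.NK and Sp.SK this laccase-type gene did not pass the test (-1.07, 0.57 and 0.59). Haem peroxidases, which use hydrogen peroxide in the wall, had 56 of 105 lower and 7 higher (median -1.27). TEA010147 stood at 0.817, 0.779 and 0.325 CPM against 21.1, 31.1 and 31.7 (log2 -5.47 ± 0.82), and TEA028298 at 4.41, 6.93 and 4.68 CPM against 123, 186 and 149 (log2 -4.84 ± 0.50).

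Intracellular redox enzymes leaned less, and partly the other way. Of 17 superoxide dismutases and catalases, which remove superoxide and hydrogen peroxide, 6 were higher in “1511” and 3 lower. The catalase TEA006171 stood at 524, 551 and 532 CPM against 111 in each “1601” library (log2 2.27 ± 0.19, adjusted p = 2.24e-08), and it averaged 405, 297 and 306 CPM in “1511” elsewhere against 99.0 to 118 CPM. The catalase TEA013817 differed by 1.86 ± 0.18. The copper/zinc superoxide dismutase TEA023332 was lower, at 9.32, 4.75 and 6.56 CPM against 28.2, 31.8 and 28.7 (log2 -2.11 ± 0.24). Glutathione S-transferases, which conjugate reactive compounds, had 34 of 111 lower and 17 higher. With a U.SK library left out, 23 to 34 were lower and 11 to 24 higher, the 11 without “1511” replicate 2 or “1601” replicate 2. TEA003225 stood at 114, 151 and 201 CPM against 8.22, 8.27 and 5.84 (log2 4.38 ± 0.46), and TEA006830 at 0.490, 1.09 and 0.455 against 13.4, 22.9 and 19 (log2 -4.77 ± 0.61).

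The entry to the phenylpropanoid and flavonoid route showed the largest share of lower genes of any list. Of 19 genes tested for phenylalanine ammonia-lyase, chalcone synthase and chalcone isomerase domains, 17 were lower in “1511” (89.5%) and 1 higher, with a median of -2.42. Their summed level was 414, 571 and 709 CPM in “1511” and 1591, 1710 and 1825 CPM in “1601”, so the groups did not overlap. The aromatic amino acid lyase TEA023243, which takes phenylalanine into the route, stood at 0.572, 0.934 and 1.10 CPM against 24.6, 49.9 and 42.7 (log2 -5.46 ± 0.75). The chalcone synthase TEA023333, the first enzyme of flavonoids, stood at 1.72, 2.18 and 2.47 CPM against 41.8, 79.0 and 78.6 (log2 -4.96 ± 0.60). Both were lower on U.NK as well (-2.08 and -2.14), and neither passed the test on Sp.NK or Sp.SK, where TEA023243 averaged 65.7 and 31.8 CPM in “1511” against 25.3 and 13.6 CPM. With each U.SK library left out in turn, 15 to 17 of the 19 were called lower.

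Most later steps of specialised metabolism leaned the same way by smaller shares, read against 29.4% lower and 24.8% higher of all genes. O-methyltransferases had 17 of 28 lower (60.7%) and 2 higher, and SABATH methyltransferases 15 of 24 lower (62.5%) and 1 higher. The 2-oxoglutarate iron dioxygenases had 70 of 154 lower (45.5%) and 29 higher. BAHD and SCPL acyltransferases, which galloylate and acylate phenolics, had 169 of 372 lower (45.4%) and 59 higher. UDP-glycosyltransferases had 100 of 241 lower (41.5%) and 53 higher, and terpene synthases 11 of 23 lower (47.8%) and 2 higher. P450 genes were near the background, with 109 of 324 lower (33.6%) and 72 higher (22.2%). In terpene synthases the summed level went the other way, without overlap (1250, 1431 and 1442 CPM against 674, 747 and 371). The acyltransferases summed to 9641 to 10129 CPM in “1511” against 9142 to 9373 CPM. That excess was proportionally smaller than the one in the sum over all genes given above, so it is not read as a higher level. The SABATH median of -3.52 became -1.74 with genes at 0 counts set to their bound, the largest such shift. TEA015791, a SABATH gene, stood at 6.62, 6.23 and 3.70 CPM against 76.5, 111 and 166 (log2 -4.42 ± 0.83), whereas on Sp.NK it averaged 313 CPM in “1511” and 102 CPM in “1601” (1.62, adjusted p = 0.106). The P450 TEA006847, which the study also names, stood at 4.74, 4.83 and 4.03 CPM against 131, 222 and 256 (log2 -5.49 ± 0.58). The glycosyltransferase TEA008451 stood at 18.8, 27.6 and 16.3 CPM against 0.263 to 0.828 (log2 5.30 ± 0.50) and averaged 17.2 to 37.9 CPM in “1511” elsewhere against 0.189 to 0.592. An acyltransferase on scaffold 3284 (4747 to 6877) stood at 28.9, 30.8 and 12.3 CPM against 0.306 to 0.536 (log2 5.85 ± 0.53).

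Hormone genes showed shares closer to the background. Auxin genes had 37 of 109 lower and 17 higher. The AUX/IAA repressor TEA006724 stood at 1.06, 0.857 and 0.779 CPM against 19.9, 20.3 and 19.7 (log2 -4.47 ± 0.67), with 14.1 to 29.9 CPM in “1511” elsewhere. The GH3 gene TEA000236, of the family that conjugates auxin to amino acids, stood at 104, 131 and 46.7 CPM against 25.1, 26.1 and 19.4 (log2 2.00 ± 0.29). Cytokinin dehydrogenases and response regulators had 19 of 51 lower and 11 higher (6 higher without “1511” replicate 1 or “1601” replicate 3), and lipoxygenases with TIFY repressors, of jasmonate synthesis and signalling, 10 of 33 lower and 7 higher. A pair of lipoxygenase genes on scaffold 1939 was low together: TEA011765 stood at 0.490, 0.545 and 0.779 CPM against 32.5, 44.1 and 56.5 (log2 -6.16 ± 0.86), and TEA011776 at 0.572, 0.311 and 0.260 against 5.79, 10.5 and 17.0 (log2 -4.87 ± 0.93). As neighbours of 1 family they may share reads, which the counting could split between them.

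Transcription factor families were mixed by their calls. WRKY factors, known for defence and stress, had 20 of 73 higher and 9 lower, the smallest share lower of the lists (12.3%). TEA028505 stood at 858, 766 and 361 CPM against 204, 168 and 114 (log2 2.03 ± 0.46). The WRKY gene TEA027058 (112, 51.5 and 20.7 CPM against 18.0, 6.34 and 5.94, log2 2.62 ± 0.89) kept its call without “1601” replicate 1 but had an adjusted p of 0.069 to 0.107 without “1511” replicate 1 or “1601” replicate 2 or 3. AP2/ERF factors had 32 of 137 higher and 35 lower, NAC factors 19 of 93 and 23 (15 lower without “1511” replicate 2), MYB-type factors 51 of 229 and 71, and bHLH factors 18 of 82 and 27. Summed levels were higher in “1511” without overlap for AP2/ERF (9571 to 11663 against 5286 to 6120 CPM) and NAC factors (4121 to 4854 against 2337 to 2921). The same held for WRKY (3475 to 4032 against 2239 to 2562) and MYB-type factors (8966 to 10040 against 6426 to 6636). The sums of bHLH factors overlapped (1484 to 1712 against 1606 to 1819). The NAC gene TEA033137 stood at 498, 492 and 115 CPM against 56.0, 45.6 and 39.7 (log2 2.97 ± 0.46). The MYB gene TEA004544 stood at 0.490, 0.934 and 0.584 CPM against 7.50, 6.78 and 7.21 (log2 -3.41 ± 0.46), and the bHLH gene TEA006010 at 3.27, 3.89 and 3.77 CPM against 38.8, 28 and 49.4 (log2 -3.41 ± 0.50).

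Genes of dividing cells were lower in “1511”. Of 182 cyclins, kinesins, core histones and MCM replication helicases, 105 were lower (57.7%) and 17 higher, with a median of -1.19 on U.SK and -0.52, -0.35 and -0.14 on U.NK, Sp.NK and Sp.SK. The helicase TEA014659 (MCM2) stood at 0.327, 0.623 and 0.649 CPM against 17.4, 16.9 and 16.2 (log2 -4.94 ± 0.70), and the histone TEA032511 at 0.654, 1.25 and 0.844 CPM against 21.4, 18.4 and 39.8 (log2 -4.85 ± 0.61). The cyclin gene on scaffold 2442, described above as far higher in “1511”, belongs to the same list. With each library left out in turn, 94 to 99 of the list were called lower. Ribosomal proteins had 188 of 428 lower and 47 higher, with a smaller median of -0.44, and summed to 17617 to 21536 CPM in “1511” against 26172 to 29787 CPM in “1601”. Their count lower was 135 to 191 with a library left out.

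Heat shock proteins and chaperones were called higher somewhat more often than all genes, with a library that stood apart. Of 270 genes, 88 were higher (32.6%, against 24.8%) and 57 lower, with a median of 0.18, and their levels summed to 46227, 40105 and 20706 CPM in “1511” against 17703 to 18002 CPM in “1601”. Replicate 3 of “1511” was thus closer to “1601” than to the other 2 “1511” libraries. The heat shock factor TEA005927, a regulator of the heat shock response, stood at 1280, 738 and 26.8 CPM against 15.1, 16 and 16.2 (log2 5.43 ± 0.82, adjusted p = 2.35e-05), and at 4.61 without “1511” replicate 1. The co-chaperone TEA023244 (DnaJ domain) stood at 92.3, 61.6 and 1.75 CPM against 1.36 to 1.70 (log2 5.04 ± 0.83, and 4.35 without replicate 1). Without replicate 3, 92 genes of the list were higher and 56 lower; with any 1 U.SK library left out the count higher was 64 to 92. On U.NK, Sp.NK and Sp.SK the list had 27, 13 and 10 genes higher and 31, 23 and 40 lower, where 14.3%, 12.4% and 14.6% of all genes were higher.

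Defence genes divided by kind. NB-ARC immune receptors were called in both directions near the background (126 of 406 higher and 116 lower), with 96 and 96 on U.NK. The NB-ARC gene TEA006687 stood at 0.327, 0.779 and 0.455 CPM against 25.9, 26.1 and 26.3 (log2 -5.63 ± 0.28), the reverse of the NB-ARC gene on scaffold 4311, and both kept their side in all 4 conditions by mean CPM. D-mannose lectin kinases (43 higher and 45 lower of 162) and malectin and wall-associated kinases (11 and 13 of 61) were also near the background or below it. Pathogenesis-related proteins had 30 of 81 lower (37.0%) and 8 higher, and germin-like and cupin proteins 36 of 76 lower (47.4%) and 7 higher. With a U.SK library left out, 24 to 30 and 25 to 43 were lower. The higher count of pathogenesis-related proteins was 5 without “1511” replicate 1 and 4 without “1601” replicate 2 or 3. TEA021347, a Bet v I (PR-10) gene, stood at 38.5, 45.3 and 22.5 CPM against 557, 628 and 860 (log2 -4.27 ± 0.54). The germin-like gene TEA005465 stood at 13.2, 18.7 and 12.8 CPM against 164, 253 and 246 (log2 -3.89 ± 0.64). A newly assembled gene on scaffold 1334 (196885 to 222553), a model that joins a thaumatin to DNA topoisomerase I, was higher at 104, 77.9 and 86.4 CPM against 4.09 to 5.92 (log2 4.10 ± 0.25).

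Mobile-element genes were higher in “1511” more often than any other list. Of 475 genes with words of retrotransposons and transposons, 207 were higher (43.6%) and 99 lower, with a median of 0.50 on U.SK and 0.26, 0.11 and 0.35 on U.NK, Sp.NK and Sp.SK. They summed to 8394, 6996 and 5143 CPM in “1511” against 3495 to 3933 CPM in “1601”, without overlap. A gag gene on scaffold 18524 (19622 to 32608) stood at 96.8, 67.8 and 72.4 CPM against 0.682 to 1.45 (log2 6.33 ± 0.47). Copies of 1 element are near-identical, so which copy the counts belong to is uncertain. Green-tissue genes, the other list that is not of root function, had 33 of 52 lower and 5 higher with a median of -1.83, and -2.22 on U.NK. The Rubisco small subunit TEA017601 stood at 2.53, 2.34 and 9.42 CPM against 44.4, 79.1 and 152 (log2 -4.25 ± 0.57, and -5.24 without “1511” replicate 3). The higher members were partly gene models that join a photosystem word to another domain, such as TEA006446 with an NAD(P)-binding domain (768, 585 and 648 CPM against 192 to 229). The part of green tissue in the other lists was not tested.

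Whether the genotype difference on U.SK departed from that elsewhere was tested directly. Against the mean of the other 3 conditions it departed in 6239 genes (17.5%), upward in 2365 (6.65%) and downward in 3874 (10.9%). Among those that departed downward, “1511” moved further than “1601” between U.SK and the other conditions in 3489 (90.1%), with a median log2 change of -1.21 in “1511” and 0.16 in “1601”. Among those that departed upward it was 2156 (91.2%), with medians of 0.75 and -0.14. These genes were selected by the same contrast on the same libraries, and the share over all genes tested was not computed. The “1511” libraries were also spread further on the first principal component (-143.2 to -15.44) than those of “1601” (59.98 to 89.21). Both shares are therefore given as description only. Against U.NK alone the difference departed in 160 genes (0.45%), 5 upward (0.0141%) and 155 downward (0.436%). This count turned on single libraries. Leaving out replicate 2 of “1511” U.NK raised it to 3166, and leaving out replicate 3 of “1511” U.SK raised it to 1178. It fell to 20 when “1511” U.SK lost its replicate 1, and to 13 when “1601” U.NK lost its replicate 2. Against the mean of the others it was 8379, 6239 and 3004 with “1511” U.NK replicate 2 left out, all libraries kept and “1511” U.SK replicate 1 left out.

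**Figure D5:**
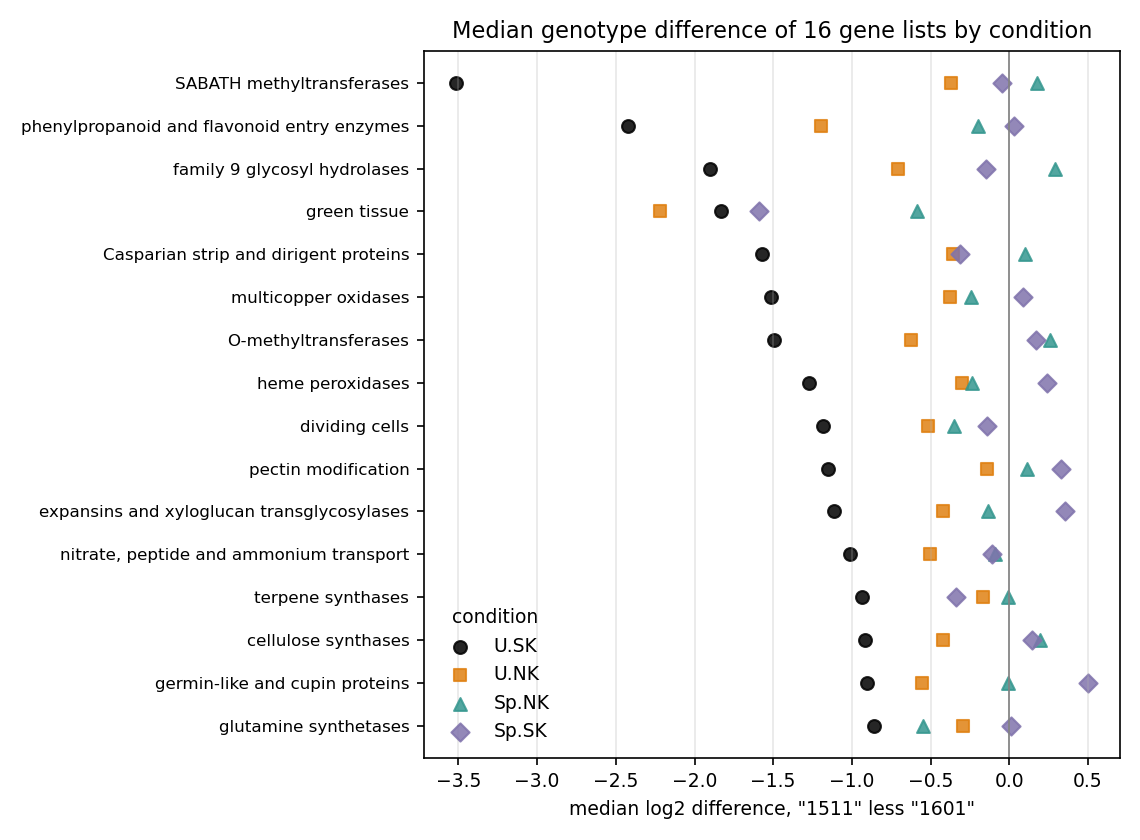
Median log2 difference, “1511” less “1601”, of the 16 lists with the lowest medians on U.SK, by condition (symbols). All lie from -3.52 to -0.86 on U.SK; the green tissue list is the one that was lower still on U.NK (-2.22).

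The lists differed in how far they departed. Downward departures were found in 15 of 19 phenylpropanoid and flavonoid entry genes, 12 of 24 SABATH genes, 9 of 24 endoglucanases, 26 of 79 expansins and xyloglucan transglycosylases, 21 of 49 cellulose synthases, 53 of 182 genes of dividing cells and 22 of 87 nitrogen transporters, against 10.9% of all genes tested. In K+ transport 6 of 49 departed downward (12.2%), near the share of all genes. The shares were lower in NB-ARC receptors (23 of 406), ribosomal proteins (16 of 428) and green tissue (4 of 52). With each of the 24 libraries left out in turn, the downward counts were 9 to 16 for the entry genes, 8 to 14 for SABATH genes, 8 to 10 for endoglucanases and 23 to 28 for expansins. They were 11 to 22 for cellulose synthases, 27 to 58 for dividing cells, 10 to 26 for nitrogen transporters and 4 to 8 for K+ transport. The lowest of these for entry genes, cellulose synthases, dividing cells and nitrogen transporters came without “1511” U.SK replicate 1. Dropping replicate 2 of “1511” U.SK or replicate 3 of “1601” U.SK gave counts of 31 and 32 for dividing cells and 13 in each case for nitrogen transporters. The ranges for NB-ARC, ribosomal and green tissue genes were 11 to 35, 2 to 50 and 1 to 10. Upward departures were most frequent in heat shock proteins and chaperones (52 of 270, against 6.65% of all) and in superoxide dismutases and catalases (6 of 17). The former count was 35 to 67 with a library left out. The latter was 2 without “1601” U.SK replicate 2 and 3 without any 1 of “1511” U.SK replicates 1 and 2 and “1601” U.SK replicates 1 and 3. As the plot of medians by condition shows, the wall and phenolic lists had medians between -0.71 and 0.38 on U.NK, Sp.NK and Sp.SK, apart from the entry enzymes on U.NK (-1.20).

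The 8 genes with the smallest p for this departure were lower in “1511” on U.SK. The SBP-domain factor TEA013294 stood at 2.29, 4.05 and 2.99 CPM against 19.3, 24.3 and 36.5, with “1511” at 13.7, 33.5 and 21.6 CPM on U.NK, Sp.NK and Sp.SK, a departure of -3.49 ± 0.36 (adjusted p = 4.28e-05). A gamma-thionin on scaffold 3154 (787944 to 790533), of a family of small defence peptides, stood at 2.86, 3.19 and 3.12 CPM against 71.1, 49.0 and 79.1, and departed by -4.41 ± 0.46. The amino acid transporter TEA007465 had 1, 1 and 5 counts in “1511” U.SK (0.0817, 0.0779 and 0.325 CPM) against 17.3, 17.5 and 17.8 CPM, and departed by -4.25 ± 0.48. A pair of xyloglucan transglycosylases was also among them, TEA021989 (-3.91 ± 0.42) and TEA015891 (0.654, 0.389 and 0.130 CPM against 8.22, 11.6 and 14.9, with 25.4 CPM in “1511” Sp.NK, -5.37 ± 0.59). The dynamin-domain gene TEA026146 changed sides: 6.87, 4.21 and 8.51 CPM against 27.8, 21.4 and 24.5 on U.SK, but 44.5 CPM in “1511” and 8.01 CPM in “1601” on Sp.NK. The other 2, a C2-domain phosphoribosyltransferase (TEA015189) and a malectin-type receptor kinase (TEA021964), departed by -2.63 ± 0.26 and -4.06 ± 0.42.

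Of 16 of the genes that the study names, chosen on these samples and so no independent evidence of direction, 9 were lower in “1511” on U.SK and 4 higher. The study reports higher levels of the cellulose-decomposing genes among them in the tolerant genotype under heterogeneous K supply. That report concerns the split supply, not U.SK. The median log2 difference of the list was -2.34 on U.SK, -0.57 on U.NK, 0.33 on Sp.NK and 0.39 on Sp.SK. On U.NK, Sp.NK and Sp.SK, 5, 0 and 1 were called lower and 3, 3 and 2 higher. The U.SK difference departed downward from the mean of the others in 11 and upward in 2. The genes lower on U.SK included the endoglucanase TEA026325 (3.02, 1.56 and 3.64 CPM against 34.1, 32.2 and 37.2, log2 -3.64 ± 0.61), the beta-glucosidases TEA008079 (log2 -3.16 ± 0.42) and TEA019040 (log2 -3.71 ± 0.76), and the starch phosphorylase-type gene TEA014414 (0.490, 1.01 and 1.49 CPM against 15.9, 24.1 and 22.6, log2 -4.35 ± 0.60). The expansin TEA013500 stood at 0, 0.156 and 0.260 CPM against 19.1, 19.1 and 39.0 (log2 -7.39 ± 1.07, and -8.22 without “1511” replicate 3). The NAD-dependent epimerase TEA024762 stood at 6.21, 5.22 and 6.04 CPM against 140, 269 and 278 (log2 -5.30 ± 0.74). Higher were TEA016242, a gene of the membrane transport family that holds auxin efflux carriers (68.4, 59.2 and 64.8 CPM against 19.5, 20.6 and 21.1, log2 1.65 ± 0.24), the iron/manganese superoxide dismutase TEA008360 (log2 1.57 ± 0.32), the zinc-finger homeodomain gene TEA003593 (log2 2.27 ± 0.68) and the lipocalin TEA014837 (311, 200 and 285 CPM against 26.6, 28.3 and 44.3, log2 3.00 ± 0.52). The glycosyltransferase TEA010182 (-0.75 ± 0.41, adjusted p = 0.127), the peroxidase TEA023936 (0.22 ± 0.63, adjusted p = 0.787) and the aquaporin TEA013356 (-1.63 ± 0.70, adjusted p = 0.0533) did not pass the test. TEA023936 averaged 14.2 to 17.5 CPM in “1511” elsewhere against 2.46 to 3.50 CPM, while on U.SK it stood at 2.53, 3.04 and 5.65 against 0.921, 5.03 and 3.60.

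By FPKM, the authors' level per length, the most abundant gene in “1511” U.SK was TEA007387, of the aluminium-induced protein family, at 8986, 8187 and 5448 FPKM against 2247, 1935 and 1646 (log2 of the count test 1.92 ± 0.50). The co-chaperone TEA011740 (DnaJ) was among the 5 highest in both genotypes, at 7001, 6933 and 6665 FPKM against 3283, 3131 and 3816 (log2 0.98 ± 0.25). The AP2 factor TEA019792 stood at 6989, 6046 and 6135 FPKM against 2531, 2120 and 2351 (log2 1.42 ± 0.33), and the RING-finger gene TEA010800 at 7257, 5401 and 2364 against 822, 814 and 486 (log2 2.78 ± 0.49). In “1601” the highest was the Bet v I gene TEA022587, at 6723, 5600 and 4558 FPKM against 2521, 2175 and 1900 in “1511” (log2 -1.39 ± 0.46). Of the other genes at the top in “1601”, TEA024808, with no Pfam description, was lower in “1511” (641.6, 711.7 and 247.5 FPKM against 3522, 3136 and 3036, log2 -2.64 ± 0.36). The DUF2775 gene TEA026788 (-0.83 ± 0.86, adjusted p = 0.432) and the translationally controlled tumour protein TEA004742 (0.39 ± 0.24, adjusted p = 0.172) did not pass the test.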

How the data were processed

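Root RNA was sequenced on Illumina HiSeq 2500, and the authors aligned the reads with HISAT2 2.0.5 to the TPIA tea genome assembled to scaffolds, adding genes newly assembled with StringTie. They deposited raw counts per gene and FPKM values (fragments scaled to gene length and depth). The counting program is not given in the sources used here, and neither is strandedness: reads of overlapping or antisense genes and of near-identical copies cannot be told apart. Reads of both genotypes were aligned to 1 reference; the part of this in genes counted in 1 genotype only was not tested.

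Counts of all 24 libraries were fitted with edgeR 4.0.16 in R 4.3.3 (filterByExpr, TMM, 8 group means, quasi-likelihood test, 16 residual degrees of freedom, Benjamini-Hochberg adjustment at 0.05), so that “1511” U.SK shares the spread of all groups. Replicates are as the labels number them. The study describes 3 replicates per treatment and 12 plants per box, and each replicate was taken to be a box. The p-values measure the spread between replicates within groups, pooled over all 8 groups. The common biological coefficient of variation was 0.34 within “1511” U.SK, 0.19 within “1601” U.SK and 0.29 over all 24 libraries. The pooled spread thus lies below that of “1511” U.SK. An exact permutation test of 3 against 3 libraries could not go below p = 0.1, and none was used. CPM are counts scaled to one library size after TMM. A gene at 0 in 3 libraries was bounded at 3 counts per library, which covers counting error only. Pfam descriptions came with the deposited table; 47 lists were drawn by words in them, and a gene may be in several lists. The members and lists were chosen with earlier results of these data known. Genes were named by rule: the 8 largest differences per direction among described genes over 3 counts in all 6 U.SK libraries, at a mean of 1 CPM and without overlap; the 6 highest per direction among genes at the floor; up to 2 per list and direction; the 8 smallest p for a departure on U.SK; the 5 highest FPKM per genotype; and 16 of the genes named by the study. Genes of a run on a scaffold were added after their values were seen. Alternatives were DESeq2 1.42.0, limma 3.58.1 (voom with quality weights), other scalings and filters, a replicate block, newly assembled genes left out, and each library left out. No sequences are shown, as none were used here.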

Additional observations from a re-analysis of the deposited data

Results flagged for a closer look

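Genes in which the genotype difference on U.SK differed from that in other conditions, by the test of that difference itself, are listed here as values. There were 160 against U.NK and 6239 against the mean of U.NK, Sp.NK and Sp.SK.

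Of the genes of the naming rule that passed the test against U.NK, 1 had a difference on U.SK above that on U.NK, the cyclin gene on scaffold 2442 (by 3.74 on the log2 scale). The others had it below. The largest shifts were those of the xylanase inhibitor-domain gene TEA027103 (-5.17), the dioxygenase TEA016482 (-4.71), the xyloglucan transglycosylase TEA015891 (-4.37), the AUX/IAA gene TEA006724 (-4.28) and the starch synthase TEA018905 (-4.20), which stood at 1.06, 2.18 and 2.53 CPM in “1511” U.SK against 40.5, 84.7 and 102 CPM. TEA027103 stood at 1.31, 2.02 and 0.520 CPM against 73.4, 132 and 190. The laccase-type gene TEA016093 shifted by -3.75, the MYB gene TEA004544 by -3.70, and the P450 TEA006847 and the amino acid transporter TEA007465 by -3.31 each. Shifts of -2.93 (the MYB gene TEA028367), -2.77 (the cellulose synthase TEA022390), -2.52 (the SBP factor TEA013294), -2.46 (the dynamin gene TEA026146) and -1.98 (TEA015189) complete the set.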

How the results depend on the processing

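The count of genes called on U.SK was within 1.5 times of 19292 under all but 1 alternative (19383 with DESeq2 size factors, 13762 without newly assembled genes, 23617 with limma voom, 16900 and 19047 with edgeR and DESeq2 on the 6 libraries, 16441 to 19190 with a library left out). The exception was a minimum of 10 counts in every library, which left 22738 genes and 11769 calls, 5650 higher and 6119 lower. DESeq2 size factors gave 9240 higher and 10143 lower. On U.NK, Sp.NK and Sp.SK the calls were 4986, 3840 and 5073 with 10 counts in every library, and 6429, 5048 and 6012 without newly assembled genes; limma voom gave 20715 on U.NK and 16343 on Sp.SK. The departure from U.NK was the least stable count: 160 became 29 with 10 counts in every library, 9127 with limma voom, 880 with DESeq2 on the 12 libraries of U.SK and U.NK, and 0 with edgeR on those 12 (5022 genes at an unadjusted p under 0.05), and lay between 13 and 3166 with a library left out. The departure from the mean of the others was 13474 with limma voom and 3004 to 8379 with a library left out. Where these counts moved the cause was not tested, other than that fewer genes were tested under the stricter filter and without newly assembled genes. Genes counted in “1511” and at the floor in “1601” numbered 478 with a floor of 0 counts, 1345 with 10 counts and 256 at a mean of 5 CPM or more; the reverse gave 601, 2417 and 238. With a library left out, as chosen after seeing the data, they numbered 797 to 924 and 1173 to 1478.

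Same-numbered “1511” and “1601” U.SK libraries did not deviate together (r = -0.05, 0.05 and 0.02), so the numbers were taken not to pair them. A fit with the replicate block gave 19143 calls on U.SK and 71 for the departure from U.NK. Of 221 named genes, 205 kept their direction and call under each alternative that gave them a value; 122 had a value under all, 137 with 10 counts in every library and 189 without newly assembled genes. The 1 reversal was TEA023936, not called in the main analysis: -0.30 with limma voom, -0.22 without “1511” U.SK replicate 3 and -0.20 without “1601” U.SK replicate 1, with a range of -0.22 to 0.70 over the 6 libraries left out. Depth limits the genes at the floor, where 3 counts per library stand for 0.225 CPM in “1511” U.SK and 0.158 CPM in “1601” U.SK.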
